A study of Gallus gallus with 4 samples.

Results

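Immediate early genes are the genes that a cell transcribes first after a stimulus, without waiting for new protein to be made. FOS, JUN, EGR1, ATF3, FOSL2, IER2 and DUSP1, 7 genes in all, were taken by name from the first column of the expression table. A row was found for 6 of them among the table's 15386 genes. IER2 had no row under that name and was not analysed here. Anterior tissue was compared with posterior tissue, and each side had 2 libraries (4 together). Both sides were the dermal papilla complex, the mesenchymal cell cluster at the base of the feather follicle with the tissue dissected along with it, from growing dorsal feathers of untreated White Leghorn chickens. The labels name no birds, ages or pools, so a p-value here speaks only of the spread among these libraries, and that spread may be technical. Values are the authors' RPKM, read counts scaled to gene length and to the mapped reads of the library, in which levels of different genes can be set side by side.

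The proteins of these genes form a short regulatory circuit. FOS, FOSL2, JUN and ATF3 carry a basic leucine zipper and pair into the AP-1 family of transcription factors, with FOS proteins needing a JUN partner to bind DNA. EGR1 is a zinc finger transcription factor switched on by the same mitogen-activated protein (MAP) kinases, and DUSP1 is a phosphatase that turns those kinases off. In mammalian tissues most of these transcripts appear within minutes of growth factor, wounding or stress signals, FOS only briefly.

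All 4 libraries held transcripts of several tissues. The 20 of 21 dermal papilla markers that had a row summed to 703 and 693 RPKM in the first and second anterior library and 509 and 725 RPKM in the first and second posterior library. The 17 epidermal and feather keratinocyte markers summed to 3539 and 1533 RPKM across the anterior pair and 2104 and 1760 RPKM across the posterior pair. Posterior library 1 stood apart, with 15 smooth muscle markers at a sum of 5229 RPKM, against 390 RPKM in posterior library 2 and 482 and 500 RPKM in the anterior libraries. The number of reads is unknown. Steps between low values put the depth relative to anterior library 1 at 99.9% for the second anterior library, and at 77.1% and 99.6% for the posterior pair.

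The immediate early genes did not separate the anterior from the posterior side. FOS and DUSP1 instead differed within each side, being several-fold higher in the first than in the second library of both. JUN and ATF3 had the same pattern at a smaller size, and EGR1 and FOSL2 did not share it. The libraries are numbered 1 and 2 within each side by the authors' column names, and no label ties a number on one side to the same number on the other.

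**Figure D1:**
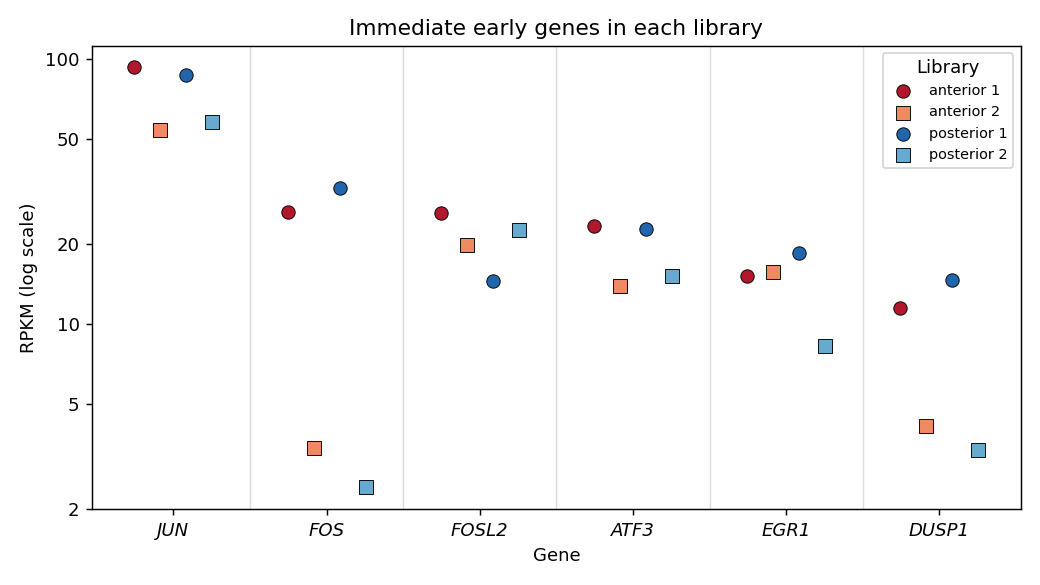
RPKM (log scale) of the 6 immediate early genes in each of the 4 libraries, one point per library. JUN, the highest, is drawn first and DUSP1 last, and the genes between them are not in order of level. FOS lies at 26.4 and 32.5 RPKM in the libraries numbered 1 (circles) and at 3.41 and 2.42 RPKM in those numbered 2 (squares), and DUSP1 splits the same way.

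FOS, the classical AP-1 subunit, varied most. Across the anterior pair, library 1 before library 2 here and below, it measured 26.4 and 3.41 RPKM, and across the posterior pair 32.5 and 2.42 RPKM. Each side thus held a high and a low library, and the sides overlapped. Library 1 was 7.76-fold above library 2 in the anterior and 13.4-fold above it in the posterior tissue. The means were 14.9 ± 16.3 RPKM for the anterior and 17.5 ± 21.3 RPKM for the posterior tissue (SD, n = 2 each). On the log2(RPKM + 1) scale used for all tests, the anterior minus posterior difference was 0.04 (standard error 1.29), with a 95% interval of -3.18 to 3.26 (limma adjusted p = 0.997). The interval is too wide to show that the sides are alike. The sign of the difference was set by single libraries: it was -1.28 without anterior library 1, 1.36 without anterior library 2, 1.69 without posterior library 1 and -1.61 without posterior library 2. In bulk tissue, more cells that carry a transcript and more transcript in each cell cannot be told apart.

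JUN, a partner of FOS, was the most abundant of the 6 genes in every library. It measured 93.3 and 54.1 RPKM across the anterior pair and 86.7 and 58.0 RPKM across the posterior pair. The ratio of library 1 to library 2 was 1.72 in anterior and 1.49 in posterior tissue, and the libraries with the same number differed less across the sides than those of one side did. Means were 73.7 ± 27.7 RPKM for the anterior and 72.4 ± 20.2 RPKM for the posterior tissue. The side difference was 0.0030 log2 units (standard error 0.37, limma adjusted p = 0.999). The difference was -0.38 without anterior library 1 and -0.28 without posterior library 2. The RPKM ratio of FOS to JUN was 0.283 and 0.0630 in the anterior and 0.375 and 0.0417 in the posterior libraries.

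ATF3, a stress-induced member of the family that can pair with JUN, followed JUN closely. It measured 23.3 and 13.9 RPKM across the anterior pair and 22.8 and 15.2 RPKM across the posterior pair. Its RPKM ratio to JUN stayed within 0.250 to 0.263 in all 4 libraries. The side difference was -0.05 log2 units (standard error 0.36, limma adjusted p = 0.989), with means of 18.6 ± 6.70 RPKM for the anterior and 19.0 ± 5.39 RPKM for the posterior tissue. It was 0.31 without anterior library 2 and 0.23 without posterior library 1.

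FOSL2, the FOS relative also called Fra-2, which in mammalian cells persists longer after a stimulus than FOS, had another order. It measured 26.1 and 19.8 RPKM across the anterior pair and 14.5 and 22.6 RPKM across the posterior pair. Its lowest value was in posterior library 1, where FOS was highest. Posterior library 1 minus 2 was -0.61 log2 units for FOSL2, beside a median of -0.22 over all genes tested. Of all genes tested, 36.3% were higher in posterior library 1 than in posterior library 2. The means of 23.0 ± 4.47 RPKM for the anterior and 18.6 ± 5.74 RPKM for the posterior tissue gave a log2 difference of 0.31 (standard error 0.32, limma adjusted p = 0.964). Without posterior library 1 that difference was 0.0092. FOS stood at 1.01 and 0.172 times the FOSL2 level in the anterior libraries, and at 2.24 and 0.107 times in the posterior libraries.

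EGR1, the zinc finger factor, was even in the anterior libraries, at 15.2 and 15.7 RPKM, and uneven in the posterior, at 18.6 and 8.23 RPKM. The posterior libraries lay on either side of both anterior values. The log2 difference was 0.29 (standard error 0.40, limma adjusted p = 0.964), from means of 15.5 ± 0.374 RPKM for the anterior and 13.4 ± 7.32 RPKM for the posterior tissue. It was 0.84 without posterior library 1 and -0.25 without posterior library 2.

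DUSP1, the MAP kinase phosphatase, repeated the FOS pattern at lower amplitude. It measured 11.5 and 4.11 RPKM across the anterior pair and 14.7 and 3.35 RPKM across the posterior pair. Library 1 was 2.79-fold above library 2 in the anterior and 4.39-fold in the posterior tissue. Means were 7.79 ± 5.20 RPKM for the anterior and 9.02 ± 8.02 RPKM for the posterior tissue, and the log2 difference was -0.05 (standard error 0.72, limma adjusted p = 0.994). Without anterior library 2 it was 0.59, and without posterior library 1 it was 0.88. FOS and DUSP1 had the same order of the 4 libraries, posterior 1 first, then anterior 1, anterior 2 and posterior 2.

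**Figure D2:**
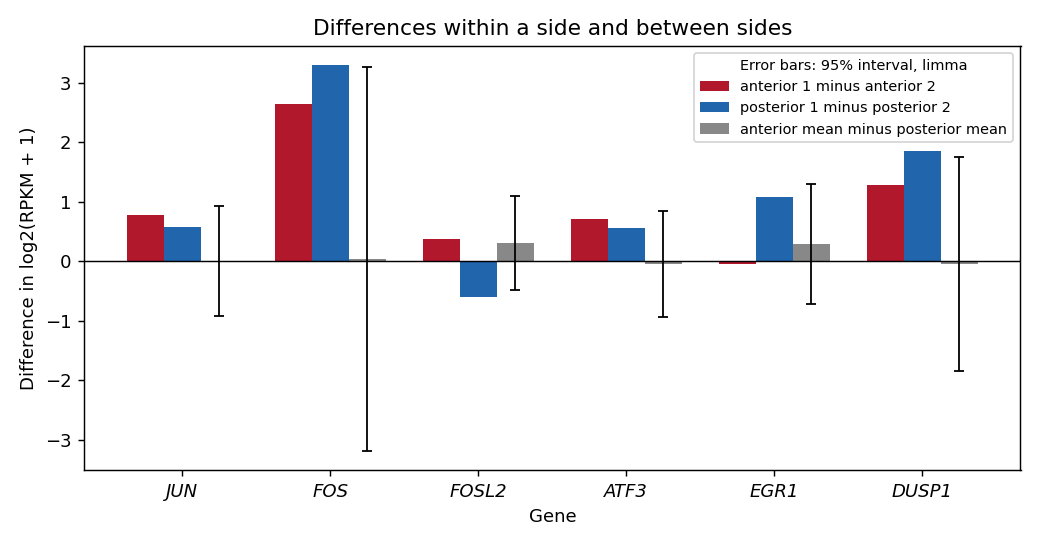
For each gene, the difference in log2(RPKM + 1) between anterior libraries 1 and 2 (red), between posterior libraries 1 and 2 (blue), and between the anterior and posterior means (grey, with the 95% limma interval). For FOS the within-side differences are 2.64 and 3.29 while the side difference is 0.04, and for no gene is the grey bar longer than both of the others.

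Within-side differences were set against the difference between sides for each gene. The side difference exceeded both within-side differences in 0 of the 6 genes, against 10.3% of the 10939 genes tested. The sides did not overlap in 0 of the 6, against 26.2% of all genes. At a limma adjusted p under 0.05, 0 of the 6 and 0.0% of all genes were called. At an unadjusted p under 0.05 the count was also 0 of 6, against 0.942% of all genes, and the smallest unadjusted limma p among the 6 was 0.365, for FOSL2. With 2 libraries against 2, an exact two-sided permutation test cannot give a p below 0.33. The median side difference of the 6 genes was 0.02, beside 0.11 over all genes tested. After median ratio scaling these medians were -0.12 and -0.0057. The differences of FOS (-0.10) and JUN (-0.14) were then below 0, and that of FOS was -0.02 after quantile normalization.

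Differences within a side were then counted by size. FOS and DUSP1 were at least 2-fold apart between the anterior libraries, 2 of 6 against 5.75% of all genes tested. FOS, DUSP1 and EGR1 were at least 2-fold apart between the posterior libraries, 3 of 6 against 22.4%. At least a 2-fold excess in library 1 of both sides was seen in 2 of 6 (FOS and DUSP1), against 1.83% of all genes. Library 1 was above library 2 on both sides, by any amount, in 4 of the 6 (FOS, DUSP1, JUN and ATF3), against 26.7% of all genes, and library 2 was above library 1 on both sides in 0 of the 6, against 37.2%. The count higher in library 1 of both sides was 4 under both other scalings. The share of all genes was then 32.9% after median ratio scaling and 30.8% after quantile normalization. The count higher in library 2 of both sides stayed at 0, against 33.0% and 35.4% of all genes. The anterior pair alone, which holds neither posterior library, had library 1 higher for 5 of the 6, all but EGR1, against 53.2% of all genes. All genes tested were also ordered by the smaller of their within-side log2 excesses in library 1. FOS stood at rank 3, DUSP1 at rank 55, JUN at rank 351 and ATF3 at rank 364 of 10939. EGR1 stood at rank 3331 and FOSL2 at rank 8048.

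**Figure D3:**
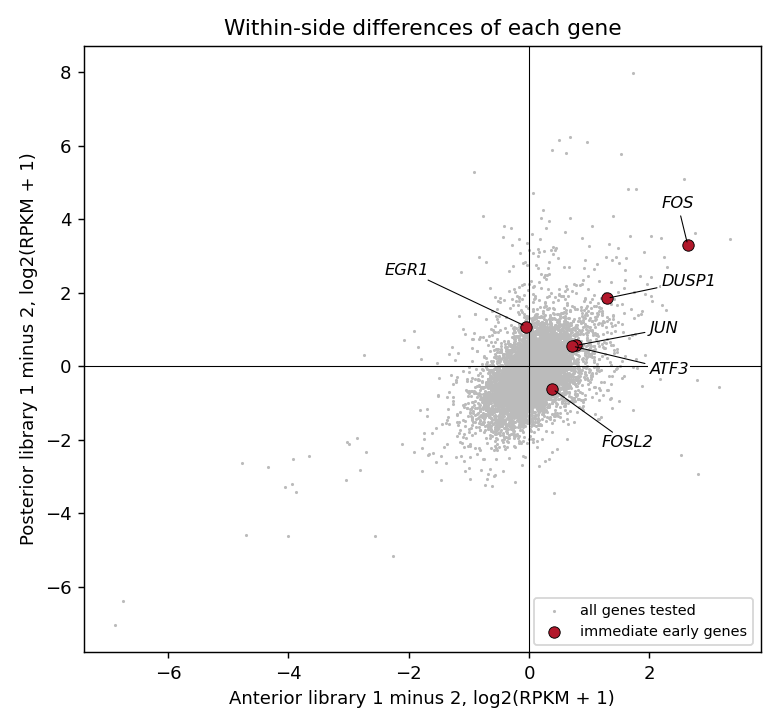
Library 1 minus library 2 in log2(RPKM + 1), anterior on the horizontal and posterior on the vertical axis, for the 10939 genes tested (grey) and the 6 immediate early genes (red). FOS at 2.64 and 3.29 lies near the upper right edge of the cloud, DUSP1 at 1.29 and 1.85 inside that edge, JUN and ATF3 close together, and EGR1 and FOSL2 off the diagonal.

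Levels of the 6 genes changed order with the library. JUN was first in all 4 libraries, with a mean of 73.0 ± 19.8 RPKM (SD, n = 4), above 94.5% of tested genes. FOSL2 (20.8 ± 4.91 RPKM), ATF3 (18.8 ± 4.97 RPKM), FOS (16.2 ± 15.5 RPKM) and EGR1 (14.4 ± 4.40 RPKM) followed and did not differ beyond their spread. DUSP1 was lowest on average, at 8.40 ± 5.56 RPKM. Its spread across libraries reached that of EGR1, but DUSP1 was below EGR1 in each of the 4 libraries. FOS ranked 2 among the 6 in both libraries numbered 1, and 6, below DUSP1, in both libraries numbered 2.

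Co-variation was measured as the Euclidean distance between profiles, each a gene's 4 log2(RPKM + 1) values minus their mean. Profiles were not scaled to a common spread, so the distance counts the size of differences as well as their direction. With 4 libraries no correlation was computed. Of the 15 pairs, JUN and ATF3 were closest, at 0.0672, and FOS and FOSL2 farthest apart, at 3.20. Among the 10938 other tested genes ranked by distance, ATF3 was at rank 2 from JUN, and JUN at rank 3 from ATF3. From FOS, DUSP1 was at rank 42 and FOSL2 at rank 6424. By this distance the reverse was less close: from DUSP1, FOS was at rank 2364, behind JUN (442), ATF3 (501) and EGR1 (896). FOS differed more than DUSP1 within the sides, by 2.64 and 3.29 against 1.29 and 1.85 log2 units, which adds to their distance. The 6 genes did not share one order of libraries: 2 pairs (FOS with DUSP1, JUN with ATF3) shared the full order of libraries, and the other 13 did not. The share over all pairs of genes was not computed, so this count says nothing particular about the members.

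**Figure D4:**
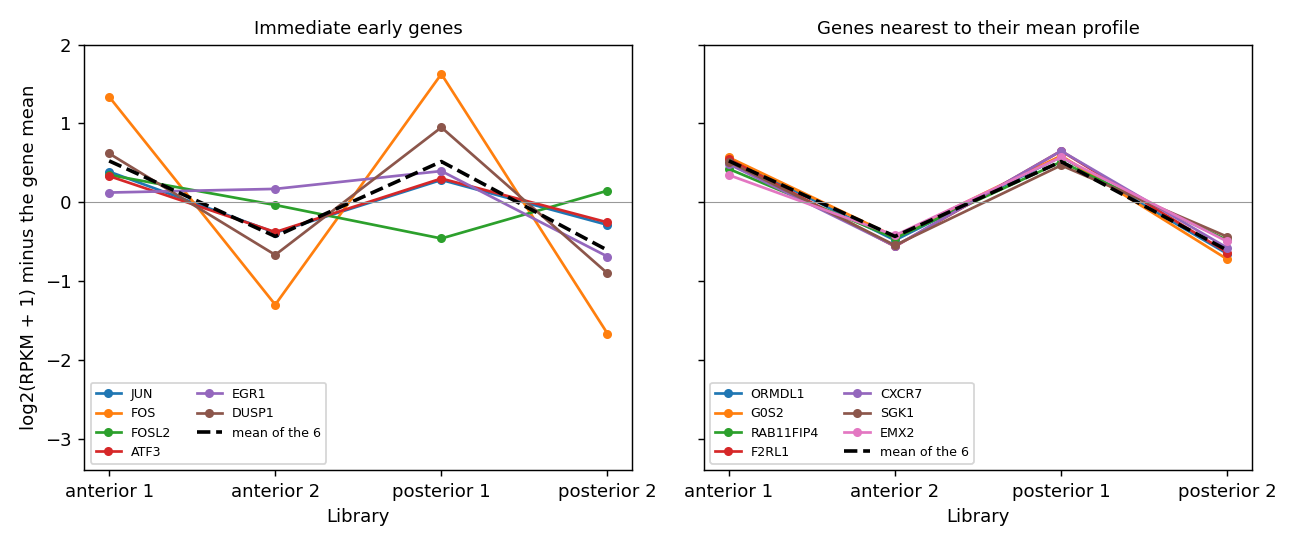
Centred log2(RPKM + 1) over the 4 libraries for the 6 immediate early genes (left) and for 7 of the 8 genes nearest to their mean profile (right), with that mean as a dashed line. JUN and ATF3 overlie each other, FOSL2 runs against the rest in posterior library 1, and the dashed line is 0.52 and 0.52 in the libraries numbered 1 and -0.43 and -0.61 in those numbered 2.

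The mean profile of the 6 genes was high in both libraries numbered 1. Not all members shared this: library 1 minus 2 was -0.05 log2 units for EGR1 in the anterior pair and -0.61 for FOSL2 in the posterior pair. As profiles were not scaled, FOS and DUSP1, with the largest within-side differences, weighed most in this mean profile. Among 6825 genes with a symbol and a mean of at least 5 RPKM, the nearest to it was ORMDL1, a regulator of sphingolipid synthesis, at 12.4 and 5.53 RPKM across the anterior pair and 12.6 and 4.80 RPKM across the posterior pair, a distance of 0.0962. Next came G0S2, an inhibitor of fat breakdown, at 39.0 and 18.9 RPKM across the anterior pair and 39.6 and 15.3 RPKM across the posterior pair. Also near were RAB11FIP4, the protease-activated receptor gene F2RL1, the chemokine receptor gene listed as CXCR7, SGK1 and EMX2, at distances up to 0.219. SGK1, a kinase gene induced by serum and glucocorticoids, belongs to the immediate early genes as well. It measured 76.7 and 36.3 RPKM across the anterior pair and 74.3 and 39.2 RPKM across the posterior pair. The genes nearest to FOS alone were the proton pump gene ATP12A, the uroplakin gene UPK1B and SLURP1, at distances of 0.626 to 0.809, and SLURP1 measured 96.3 and 19.1 RPKM across the anterior pair and 113.8 and 22.6 RPKM across the posterior pair.

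Other genes of the circuit were taken from 6 lists. Rows under the listed names, which took in none for FOSB, FOSL1, JUNB and JUND (not analysed here), were found for 19 of 32 AP-1 and partner genes, 29 of 37 other early factors, 25 of 31 secreted and cytoplasmic early genes, 26 of 38 feedback regulators, 31 of 36 upstream genes and 33 of 34 heat shock genes. The median side differences of the first 5 lists were 0.16, 0.22, 0.16, 0.21 and 0.15 in that order, beside 0.11 over all genes tested. None of the tested genes of the 6 lists passed the limma test (adjusted p under 0.05), and at an unadjusted p under 0.05 there were 2 of 155 (1.29%), TRIB1 and ADAMTS1, against 0.942% of all genes. The list of other AP-1 members and dimer partners had 18 tested genes. Library 1 was higher on both sides in 5 (27.8%, against 26.7% of all genes) and library 2 in 7 (38.9%, against 37.2%). ATF4, a stress response factor, was the most abundant, at 214.8 and 238 RPKM across the anterior pair and 179 and 221 RPKM across the posterior pair. CEBPB and ATF1 followed, at means of 59.3 and 29.6 RPKM. CREM, a cAMP-responsive factor, came first by p with a log2 difference of -0.68 (standard error 0.35), at 16.8 and 13.8 RPKM across the anterior pair and 33.8 and 18.4 RPKM across the posterior pair. CREB3 and CREB3L1, membrane-bound factors, had log2 differences of 0.47 and 0.51. CREB3 measured 10.4 and 11.3 RPKM across the anterior pair and 5.81 and 9.75 RPKM across the posterior pair. CREB3L1 measured 13.7 and 11.95 RPKM against 6.26 and 11.85 RPKM, so that only posterior library 1 stood clearly lower.

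Other immediate early transcription factors numbered 27. Of these, 9 were higher in library 1 of both sides (33.3%, against 26.7% of all genes) and 12 in library 2 (44.4%, against 37.2%). After median ratio scaling these counts were 11 (40.7%, against 32.9% of all genes) and 10 (37.0%, against 33.0%). After quantile normalization they were 9 and 11. KLF6, a Krüppel-like factor, measured 17.3 and 9.17 RPKM across the anterior pair and 24.1 and 9.63 RPKM across the posterior pair, and RCAN1, a calcineurin inhibitor, 30.8 and 14.2 RPKM against 32.4 and 17.4 RPKM. KLF6 and RCAN1 were chosen after their values were seen, as were MYC and IER5, which went the other way. MYC measured 11.0 and 17.4 RPKM across the anterior pair and 6.49 and 15.9 RPKM across the posterior pair. IER5 measured 23.3 and 28.8 RPKM against 11.0 and 27.7 RPKM. KLF4, another Krüppel-like factor, came first by p with a log2 difference of 0.77 (standard error 0.39), at 33.2 and 38.6 RPKM across the anterior pair and 14.1 and 29.7 RPKM across the posterior pair. ID1, a BMP target, and CSRNP1 had log2 differences of 0.998 (standard error 0.56) and 0.48. The sides of ID1 overlapped, at 27.2 and 35.6 RPKM across the anterior pair and 8.09 and 27.5 RPKM across the posterior pair. The most abundant factors were SNAI2, NFIL3 and ID2, with means of 110.5, 103.7 and 56.0 RPKM. All of them were higher in library 1 of both sides, but SNAI2 was nearly flat, at 1.09-fold on each. NFIL3 was 1.30-fold higher in the anterior and 1.61-fold in the posterior pair, and ID2 1.25-fold and 1.68-fold. EGR4 and NR4A2 were below 1 RPKM in every library.

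Immediate early genes for secreted and cytoplasmic proteins numbered 22. Of these, 9 were higher in library 1 of both sides (40.9%, against 26.7% of all genes) and 4 in library 2 (18.2%, against 37.2%). Under both other scalings the counts were 10 (45.5%) and 3 (13.6%). The shares of all genes were then 32.9% and 33.0% (median ratio) and 30.8% and 35.4% (quantile). Besides SGK1, the members furthest apart were chosen after their values were seen. CYR61, a matricellular protein gene, measured 16.3 and 6.49 RPKM across the anterior pair and 18.0 and 5.96 RPKM across the posterior pair. IL8, a chemokine gene, measured 2.60 and 0.492 RPKM against 10.9 and 0.524 RPKM, and RGS1, a G protein regulator, 4.80 and 1.65 RPKM against 17.5 and 1.69 RPKM. CTGF, a close relative of CYR61, went another way, at 28.5 and 43.7 RPKM across the anterior pair and 34.8 and 38.6 RPKM across the posterior pair. TRIB1, a pseudokinase, measured 9.44 and 6.61 RPKM across the anterior pair and 2.81 and 4.81 RPKM across the posterior pair (log2 difference 0.92, standard error 0.33, limma adjusted p = 0.964). ADAMTS1, a secreted protease, measured 33.3 and 28.7 RPKM against 11.0 and 21.9 RPKM (log2 difference 0.95, standard error 0.37, limma adjusted p = 0.964). Both anterior libraries were above both posterior libraries in 8 of these 22 genes, against 18.9% of all genes tested, and the reverse held for 1, against 7.25%. Both anterior libraries were also higher in 8 of 24 feedback regulators, 3 of 18 AP-1 and partner genes and 6 of 27 other early factors. The same held for 5 of 31 upstream genes and 3 of 33 heat shock genes. BDNF had a log2 difference of 0.55, and MCL1, a survival gene, 0.23.

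Feedback regulators limit the early response, as DUSP1 does. Of 24 tested, 9 were higher in library 1 of both sides (37.5%, against 26.7% of all genes) and 5 in library 2 (20.8%, against 37.2%). None was at least 2-fold higher in library 1 of both, against 1.83% of all genes. Among other dual-specificity phosphatases, DUSP14 measured 48.3 and 44.7 RPKM across the anterior pair and 57.0 and 62.1 RPKM across the posterior pair, and DUSP7 44.7 and 43.3 RPKM against 27.0 and 39.8 RPKM. DUSP4 measured 3.21 and 1.90 RPKM against 1.34 and 1.47 RPKM. The growth arrest gene BTG1 was the most abundant, at 116.9 and 184.0 RPKM across the anterior pair and 87.0 and 145.9 RPKM across the posterior pair, lower in library 1 of both sides. NAB1, a corepressor of EGR proteins, and PPP1R15B had log2 differences of 0.52 and 0.47. NAB1 measured 33.6 and 30.0 RPKM against 16.1 and 29.3 RPKM, so that only posterior library 1 stood clearly lower.

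The kinases and serum response factors act upstream of these genes. Of 31 tested, 6 were higher in library 1 of both sides (19.4%, against 26.7% of all genes) and 7 in library 2 (22.6%, against 37.2%). The first count depended on the scaling. It was 12 after median ratio scaling (38.7%, against 32.9% of all genes) and 10 after quantile normalization (32.3%, against 30.8%). SRF, the factor that binds the FOS promoter, was chosen for that role and measured 7.90 and 11.6 RPKM across the anterior pair and 8.93 and 8.09 RPKM across the posterior pair. The kinase genes MAPK6 and MAP2K1 were the most abundant, at means of 53.5 and 39.7 RPKM. The coactivator genes CREBBP and EP300 and the SRF partner gene ELK4 came first by p, with log2 differences of 0.40 to 0.57. ELK4 measured 11.6 and 9.03 RPKM across the anterior pair and 4.98 and 8.97 RPKM across the posterior pair. MYOCD, the smooth muscle coactivator of SRF, was chosen after its values were seen and measured 16.8 RPKM in posterior library 1, against 0.472 to 1.21 RPKM elsewhere.

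Many heat shock and unfolded protein genes were higher in the libraries where FOS was high, few of them by 2-fold or more on both sides. Of 33 tested, 22 were higher in library 1 of both sides (66.7%, against 26.7% of all genes) and 2 in library 2. The count was 24 after median ratio scaling, against 32.9% of all genes, and 20 after quantile normalization, against 30.8%. In the anterior pair alone 29 of 33 were higher in library 1, against 53.2% of all genes. At least a 2-fold excess in library 1 of both sides was seen in 2 of 33 (HSP90AA1 and HMOX1), against 1.83% of all genes. The median log2 difference of library 1 minus 2 was 0.36 in the anterior and 0.37 in the posterior pair. Over all genes tested it was 0.03 and -0.22. HSP90AA1, the inducible HSP90 chaperone gene, measured 677 and 292 RPKM across the anterior pair and 827 and 361 RPKM across the posterior pair. The gene listed as HSP70 measured 349.5 and 234.0 RPKM against 347 and 247 RPKM, and HSP90B1, of the endoplasmic reticulum, 433 and 209.5 RPKM against 306 and 236 RPKM. HMOX1, the haem oxygenase gene, chosen after its values were seen, measured 74.7 and 37.2 RPKM against 160.0 and 55.6 RPKM. Not every chaperone did this: HSP90AB1, also chosen afterwards, measured 51.1 and 65.9 RPKM across the anterior pair and 18.7 and 58.4 RPKM across the posterior pair. HSPB8, HSF1 and TXNRD1 came first by p, with log2 differences of -0.57, 0.44 and -0.44. The median side difference was -0.14, beside 0.11 over all genes tested.

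**Figure D5:**
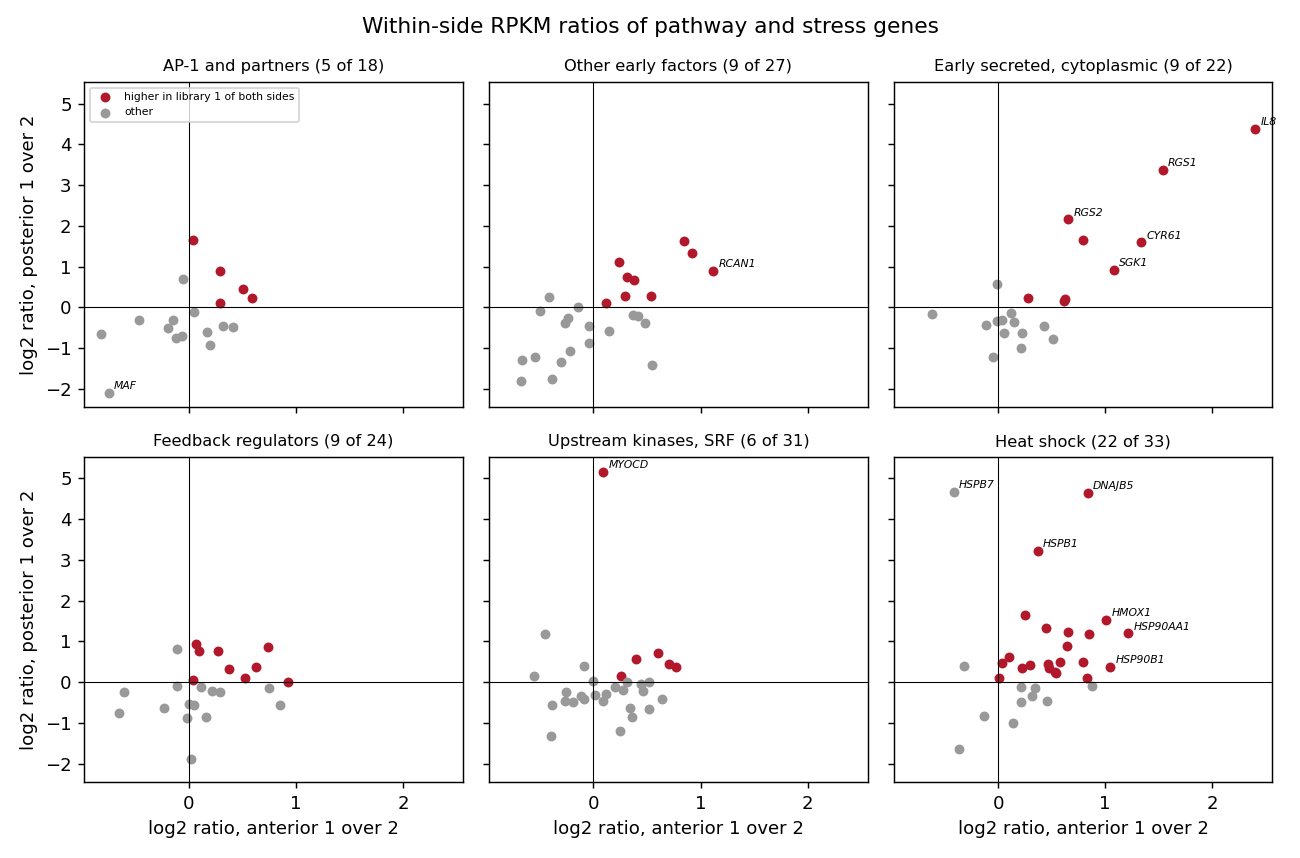
The log2 RPKM ratio of library 1 to library 2, anterior on the horizontal and posterior on the vertical axis, one panel per list and one point per gene, with genes higher in library 1 of both sides in red and their number in the panel title. Of the 6 panels, heat shock genes hold the largest share in the upper right quadrant, 22 of 33, and the secreted and cytoplasmic early genes include IL8, RGS1, CYR61 and SGK1 there.

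Markers of some other cell types also differed between the libraries numbered 1 and 2, on both sides or on 1 side only. Others stayed near the share over all genes. Their part in the pattern was not tested. Of the 17 epidermal and feather keratinocyte markers tested, 7 were higher in library 1 of both sides, against 26.7% of all genes. Library 2 was higher on both sides in 2, F-KER and FK21, whose values are given at the end, against 37.2% of all genes. In the anterior pair alone 14 of the 17 were higher in library 1, against 53.2% of all genes, and in the posterior pair 8 of 17, against 36.3%. KRT75, a feather keratinocyte gene, measured 447 and 114 RPKM across the anterior pair and 423 and 89.3 RPKM across the posterior pair, whereas KRT5 measured 796 and 216 RPKM against 182 and 266 RPKM. Smooth muscle markers were higher in posterior library 1 for 15 of 15, against 36.3% of all genes, and in anterior library 1 for 9 of 15, against 53.2%. Of the 18 dermal papilla markers tested, 2 were higher in library 1 of both sides, against 26.7% of all genes, and 11 in library 2, against 37.2%. The haemoglobin gene HBAA was highest in anterior library 2, at 548 RPKM against 129 RPKM in anterior library 1, with 227 and 136 RPKM in the posterior libraries. Library 1 was the higher on both sides in 9 of 15 smooth muscle and 7 of 13 leukocyte markers tested, against 26.7% of all genes. The count was 2 of 15 for endothelial, 1 of 5 for pericyte and 1 of 6 for melanocyte markers. It was 2 of 6 for nerve and 1 of 3 for blood cell markers. Library 2 was the higher on both sides in 0 smooth muscle, 6 leukocyte, 7 endothelial and 2 pericyte markers, against 37.2% of all genes. That count was 4 for melanocyte, 2 for nerve and 0 for blood cell markers. The leukocyte markers summed to 180 and 181 RPKM across the anterior pair and 209 and 180 RPKM across the posterior pair.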

How the data were processed

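RNA of 4 dissected tissue samples was extracted with Trizol and made into TruSeq V2 libraries, per the labels' protocols. The authors deposited one RPKM value per gene and library, and the table's name gives Ensembl release 78. TopHat2, Partek and galGal4 are named in the submitters' processing notes, without versions. The counting and its use of strand are not given in the sources used here. RPKM keeps no read totals, so count tests were not used. Symbols were matched to a RefSeq gene table (GRCg7b), used for names only. No sequences are shown.

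The test covered the 10939 genes that reached 1 RPKM in 2 or more libraries, as log2(RPKM + 1) with limma 3.58.1 in R 4.3.3 (trend, two-sided, Benjamini-Hochberg, 2 residual degrees of freedom), which understates the fold change of low genes. Standard errors, intervals and p-values use variances that limma moderates across the genes tested, so they do not rest on a gene's own residuals alone. Differences are anterior minus posterior, and within-side differences are library 1 minus library 2, described without a test. Distances, counts and plots used Python 3.11.15. Relative depth was read from the commonest ratio between values under 0.3 RPKM.

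The members and lists were chosen with earlier results of these data known. The rule for named genes took the members, the 3 tested genes of smallest p and the 3 of highest mean per pathway or stress list, and the nearest profiles; 2 genes it takes are not reported here. Alternatives were other pseudocounts, filters, scalings, variance settings, a block for the library number and leaving out each library.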

Additional observations from a re-analysis of the deposited data

How the results depend on the processing

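The number of genes past the limma threshold was 0 under each pseudocount, filter, scaling and variance setting, 2 with a replicate block for the library number, and 0 to 226 when a library was left out, the 226 without posterior library 2. No label pairs the numbers; across tested genes, which are not independent, the library 1 minus 2 differences of the sides correlated at r = 0.49, and with the block the adjusted p of the 6 members was 0.86 to 0.998. With the deposited values, members whose sides did not overlap numbered 0, and this was 2 to 4 with a library left out. The side difference then exceeded the remaining within-side differences in 0 to 2. With 1 library against 2, sides fail to overlap more often by order alone. The share over all genes was not computed for these counts, so they say nothing particular about the members. Of log2 side differences, FOS became -0.10 (median ratio) and -0.019 (quantile), and JUN -0.14 (median ratio). Leaving out a library moved FOS between -1.61 and 1.69, JUN between -0.38 and 0.39, EGR1 between -0.25 and 0.84, ATF3 between -0.40 and 0.31, and DUSP1 between -0.97 and 0.88, and none passed. FOSL2 stayed above 0 under every alternative run. Where 1 library remained on a side, its spread was taken from the other. The cause of these shifts was not tested. Read depth is unknown, so no counting interval can be given for low values such as FOS in the libraries numbered 2.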

Other observations

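Genes outside the lists that were furthest above library 2 in library 1 on both sides stood beside FOS, and are named here after their values were seen. ATP12A measured 10.4 and 0.132 RPKM across the anterior pair and 14.0 and 0.358 RPKM across the posterior pair, and MMP7, a matrix metalloprotease gene, 11.8 and 1.15 RPKM against 44.0 and 0.314 RPKM. PDK4, a kinase gene that restrains glucose oxidation, measured 5.33 and 0.393 RPKM against 17.8 and 0.681 RPKM. AVD, the avidin gene, measured 11.6 and 1.67 RPKM against 32.8 and 3.29 RPKM. A pair of genes with the opposite order, both among the epidermal and feather keratinocyte markers above, was also chosen after their values were seen. The gene listed as F-KER measured 0.269 and 8.17 RPKM across the anterior pair and 0 and 2.83 RPKM across the posterior pair, and FK21 0.0528 and 7.61 RPKM against 0.0151 and 3.22 RPKM.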
